A study of Mus musculus with 18 samples.

Results

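In the IS-caput epididymis of the mouse, which is the initial segment dissected together with the caput, 58 of 24346 genes in the deposited expression table had a mean level above that of sham after bilateral orchidectomy (OD) but below that of their controls both on the operated side of unilateral OD and in Nell2-/- mice. These genes were chosen by the deposited values themselves. The rule took ratios of group mean FPKM (read fragments scaled to gene length and library size) and required bilateral OD over sham above 1.5, unilateral OD over the contralateral side below 0.8, Nell2-/- over WT below 0.8 and a contralateral mean of at least 1 FPKM. Symbols beginning with Defb, Cst, Crisp, Col or Serpin were left out, which removed 1 gene that met every ratio. The levels of the 58 genes in these 3 comparisons are therefore a description of the selection, and no test of them is given.

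RNA-seq of polyadenylated RNA was compared in 6 groups of 3 libraries. The sham, bilateral OD, contralateral and unilateral OD groups were wild-type B6D1F1 males aged 12 weeks. By the study's methods, their surgery came weeks before the tissue was taken. The contralateral and unilateral (ipsilateral) libraries came, by the study's methods, from the untouched and the operated side of the same animals, so a testis was still present in those mice. The WT and Nell2-/- groups were untreated males aged 14 weeks, prepared for an earlier experiment, and Nell2-/- mice lack both copies of the gene. All 6 groups shared the tissue and the library kit. Nell2 itself was near the limit of detection in this tissue, between 0.0302 and 0.130 FPKM in the WT libraries and at 0, 0.0275 and 0 FPKM in the Nell2-/- libraries, so its level cannot check the genotype here. Means of FPKM are given ± SD (n = 3 libraries). The study's methods give 3 animals for each of unilateral OD, bilateral OD and sham, but the labels do not name the animal of a library. P-values measure only the spread between these libraries.

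The testis acts on the epididymis in 2 ways. Androgens reach it through the blood, which is the endocrine action. Proteins made by testicular cells also travel down the lumen of the efferent ducts, which is the lumicrine action. NELL2, secreted by germ cells, is a lumicrine ligand of the receptor tyrosine kinase ROS1 on the epithelium of the initial segment, and ERK activity downstream of it is needed for that segment to differentiate. Bilateral OD removes both actions, unilateral OD removes the luminal input on the operated side while the other testis still secretes androgen, and Nell2-/- removes the ligand with the testes in place.

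A mean above sham in bilateral OD together with means below control in unilateral OD and in Nell2-/- was uncommon in the table. Of 12572 genes outside the named prefixes with a contralateral mean of at least 1 FPKM, 1753 had ratios below 0.8 in both unilateral OD and Nell2-/-. In bilateral OD, 1324 of those 1753 were also below 0.8 of sham, 369 lay between 0.8 and 1.5, and 58 were above 1.5. Over all 12572 genes, 2240 were above 1.5 in bilateral OD. The 58 genes are drawn apart from the other genes that were low in both conditions in the plot of the bilateral ratio against the unilateral one.

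**Figure D1:**
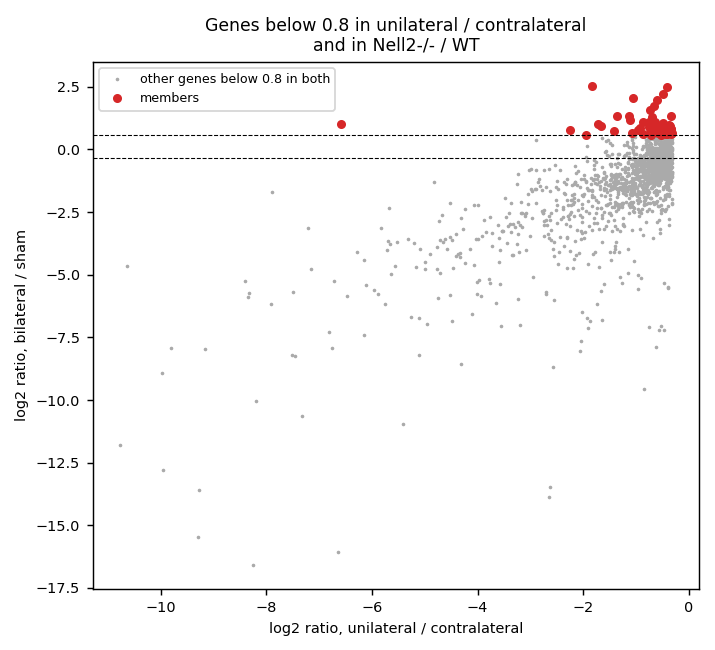
Log2 ratio of group mean FPKM in bilateral OD over sham (y axis) against unilateral OD over contralateral (x axis), for 1722 genes with ratios below 0.8 in both unilateral OD and Nell2-/- and no group mean at 0. Grey points are genes outside the rule, red points are 54 chosen genes, and dashed lines stand at ratios of 1.5 and 0.8; most grey points lie below the lower line.

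Among the chosen genes the sizes were unequal. Over the 56 with finite ratios the median was 1.78 for bilateral OD over sham, with 1.5 as the lowest. It was 0.635 for unilateral OD over contralateral and 0.554 for Nell2-/- over WT, against medians of 0.972, 0.997 and 1 over all genes with a contralateral mean of at least 1 FPKM. Bilateral OD exceeded 2 times sham for 22 of the 58 genes and 4 times for 8, while 12 genes lay below 0.5 in both of the other comparisons. In 38 genes the Nell2-/- ratio was the lower of those 2 ratios. Bilateral OD had the highest mean of all 6 groups in 51 genes. The lowest mean was in unilateral OD for 24 genes and in Nell2-/- for 30.

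**Figure D2:**
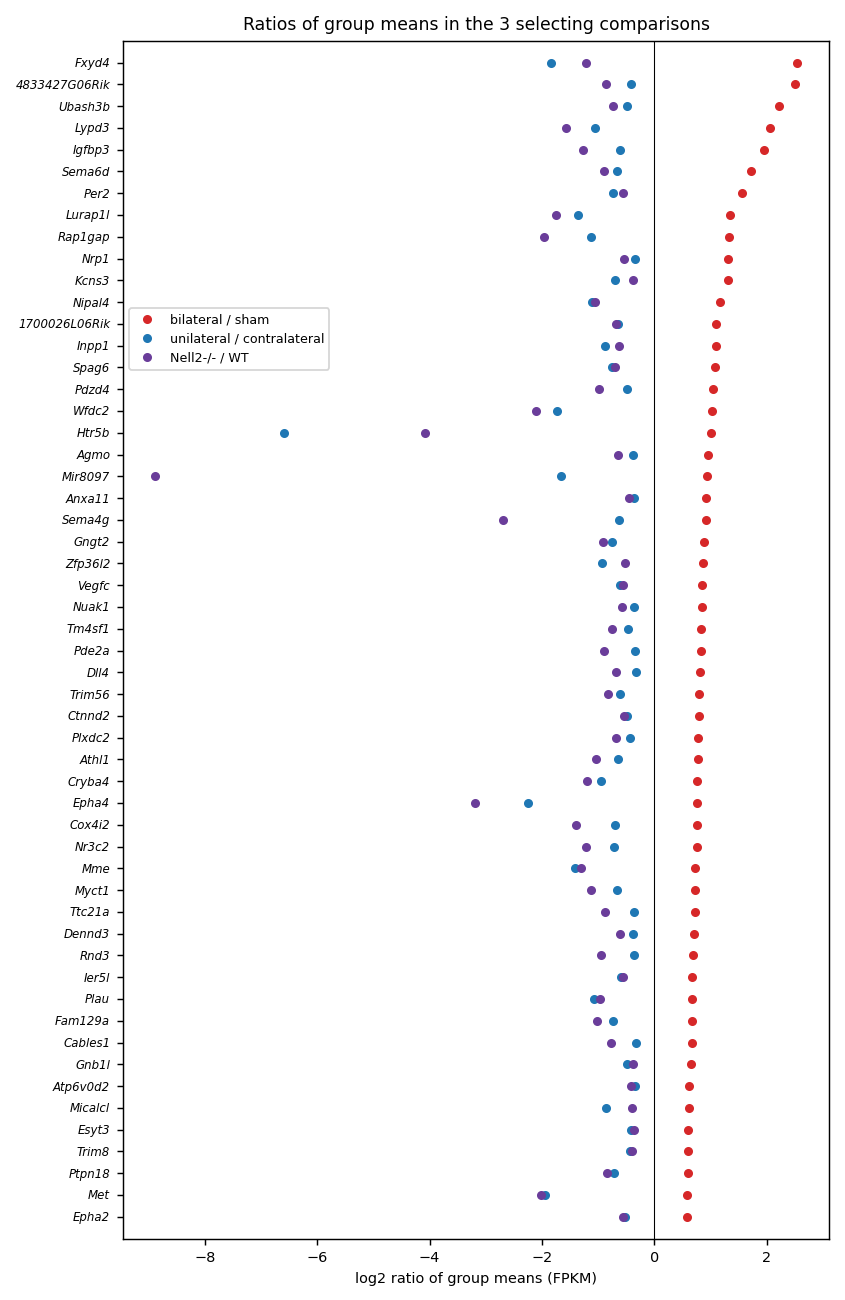
Log2 ratio of group mean FPKM for 54 chosen genes, sorted by the bilateral ratio, in bilateral OD over sham (red), unilateral OD over contralateral (blue) and Nell2-/- over WT (purple). Red points lie right of 0 and the others left of it by the rule; Fxyd4 has the highest red point at a ratio of 5.83 and Htr5b the lowest blue point at a ratio of 0.0104.

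Levels were mostly modest, with a contralateral mean of 10 FPKM or more in 10 genes, 2 to 10 FPKM in 28 and under 2 FPKM in 20. All 3 bilateral OD libraries lay above all 3 sham libraries in 51 of the 58 genes, an arrangement found in 31.4% of the 17302 genes that reached 0.1 FPKM in at least 3 libraries. All unilateral OD libraries lay below the contralateral ones in 39 genes (23.8% of those 17302 genes), and all Nell2-/- libraries below WT in 51 (24.0%). In 36 genes the libraries were apart in all 3 comparisons (1.25%), and in 21 genes bilateral OD lay above, and both unilateral OD and Nell2-/- below, all 9 control libraries (0.48%). Nothing is read from these counts, since the rule used the same libraries. The median coefficient of variation within groups over the 55 genes that are not small RNA genes was 9.94% in bilateral OD, the lowest group, and 14.5% in Nell2-/-, the highest. That order is not read as a result either, since the rule set which groups were high and which were low.

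Some genes lay close to a threshold. Epha2 (1.502) and Met (1.504) lay just inside the bilateral threshold, and Rab11fip5 (1.488) and App (1.479) just outside. For unilateral OD, Cables1 (0.797) and Dll4 (0.795) lay inside, with Tnfsf10 (0.801) and Ust (0.808) outside. For Nell2-/-, Esyt3 (0.782) and Kcns3 (0.766) lay inside, with Mipol1 (0.804) and Mapk8ip1 (0.817) outside. For the contralateral minimum, Myct1 (1.05 FPKM) and Rap1gap (1.06 FPKM) lay inside, with Ripply3 (0.994 FPKM) and Nptxr (0.967 FPKM) outside. With each of the 18 libraries left out in turn, 31 genes met the rule every time, and 15 failed it in 3 or more of the 18 repeats.

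Growth factor receptors and their ligands formed the first group by known role, of 12 receptors, ligands and guidance proteins. Met encodes the receptor tyrosine kinase for hepatocyte growth factor, which signals through ERK among other routes, and lies on GRCm38 chromosome 6, 17463349 to 17573980. Its level was 8.16, 10.2 and 8.35 FPKM in sham and 12.96, 13.8 and 13.5 FPKM after bilateral OD. On the contralateral side it was 9.62, 10.2 and 9.44 FPKM, against 2.76, 2.35 and 2.45 FPKM on the operated side. WT libraries stood at 9.39, 10.3 and 9.35 FPKM and Nell2-/- libraries at 2.39, 2.61 and 2.17 FPKM. No library of any treated group overlapped its controls, and the ratios of 0.258 in unilateral OD and 0.247 in Nell2-/- were farther from 1 than that of 1.504 in bilateral OD. Because the last lies near its threshold, Met met the rule in only 14 of 18 repeats. The RefSeq window around its transcription start, from 250 bases before to 50 bases after on the plus strand of GRCm38.p6 (chr6:17463707-17464006), is shown because it is 1 of only 2 among the chosen genes to hold the AP-1 letters TGANTCA, with the match and an E-box (CACGTG) in capitals.
Met: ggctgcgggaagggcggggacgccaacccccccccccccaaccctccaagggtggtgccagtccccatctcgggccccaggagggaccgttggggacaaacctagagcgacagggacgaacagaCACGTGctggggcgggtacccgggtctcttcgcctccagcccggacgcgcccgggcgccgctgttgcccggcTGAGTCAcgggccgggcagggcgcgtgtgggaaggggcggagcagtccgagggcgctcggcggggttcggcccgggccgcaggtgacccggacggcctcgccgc

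Plau encodes urokinase, the plasminogen activator that can also process hepatocyte growth factor. It stood at 5.76, 4.36 and 3.99 FPKM in sham, 6.15, 8.17 and 8.14 FPKM in bilateral OD, 3.96, 4.72 and 3.93 FPKM contralaterally and 1.68, 2.09 and 2.21 FPKM on the operated side. WT was lower than sham from the start, at 2.08, 3.099 and 1.73 FPKM, and Nell2-/- stood at 1.21, 1.29 and 1.05 FPKM. The treated groups did not overlap their own controls, but bilateral replicate 1 lay close to the highest sham library.

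Igfbp3, a secreted binding protein of insulin-like growth factors, had one of the larger bilateral ratios and, outside the small RNA genes, the largest coefficient of variation there (50.4%). Sham libraries held 14.7, 10.4 and 11.3 FPKM and bilateral OD libraries 20.2, 64.8 and 56.4 FPKM. Contralateral libraries held 14.7, 11.8 and 15.8 FPKM, unilateral OD 9.92, 9.73 and 8.17 FPKM, WT 18.6, 14.5 and 13.4 FPKM and Nell2-/- 7.37, 6.91 and 4.98 FPKM. Replicate 1 of bilateral OD reached only 1.66 times the sham mean, whereas the mean of replicates 2 and 3 was 5 times that mean.

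Vegfc, a ligand of the lymphatic and vascular VEGF receptors, and Nrp1, the neuropilin that serves as a co-receptor for VEGF and class 3 semaphorins, were both on the list of VEGF family genes. Vegfc stood at 1.88, 1.48 and 1.49 FPKM in sham and 1.92, 3.47 and 3.33 FPKM in bilateral OD, where replicate 1 again lay close to the highest sham library. It was 2.23, 2.05 and 1.86 FPKM contralaterally, 1.23, 1.43 and 1.37 FPKM in unilateral OD, 1.28, 1.17 and 1.78 FPKM in WT and 1.16, 0.776 and 0.9501 FPKM in Nell2-/-. Nrp1 stood above every control in bilateral OD, at 15.9, 18.01 and 18.6 FPKM against 8.09, 6.77 and 6.16 FPKM in sham. Its difference on the operated side was small, 8.66, 8.498 and 6.75 FPKM against 9.597, 9.96 and 10.7 FPKM, and the WT and Nell2-/- libraries held 8.08, 7.89 and 8.14 FPKM and 4.82, 6.45 and 5.28 FPKM. The operated side thus overlapped sham, and the ratio of 0.7898 rests on a contralateral level above sham.

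The Eph receptors bind membrane-anchored ephrins on neighbouring cells. Epha4 held 3.11, 2.98 and 3.61 FPKM contralaterally and 0.788, 0.681 and 0.5696 FPKM in unilateral OD, 4.603, 4.33 and 4.06 FPKM in WT and 0.361, 0.758 and 0.308 FPKM in Nell2-/-. Sham held 3.26, 3.68 and 2.8 FPKM and bilateral OD 5.87, 4.95 and 5.74 FPKM. Those 3 pairs of groups did not overlap. Epha2 was low, and its libraries overlapped in bilateral and in unilateral OD, with 0.796, 0.436 and 0.546 FPKM in sham, 0.619, 0.883 and 1.17 FPKM in bilateral OD, 1.06, 1.65 and 0.838 FPKM contralaterally and 0.555, 0.828 and 1.08 FPKM in unilateral OD. Its WT libraries held 0.927, 0.817 and 0.776 FPKM and its Nell2-/- libraries, all lower, 0.628, 0.698 and 0.389 FPKM, and it met the rule in 13 of 18 repeats. Its window on the plus strand of GRCm38.p6 (chr4:141300971-141301270) is shown as the only one of the chosen genes with a cyclic AMP response element (TGACGTCA), in capitals with both matches to the ETS core GGAAGT, here on the minus strand.
Epha2: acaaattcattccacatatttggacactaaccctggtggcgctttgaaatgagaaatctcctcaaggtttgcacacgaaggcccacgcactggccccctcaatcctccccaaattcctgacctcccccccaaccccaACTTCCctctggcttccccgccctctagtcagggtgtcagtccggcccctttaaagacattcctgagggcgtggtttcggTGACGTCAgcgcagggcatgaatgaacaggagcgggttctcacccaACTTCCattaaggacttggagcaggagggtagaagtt

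Transmembrane semaphorins, which act as guidance cues through plexins, gave a gene with a strong Nell2-/- difference and one with a strong bilateral difference. Sema4g held 8.79, 10.1 and 10.4 FPKM in WT and 1.14, 1.71 and 1.68 FPKM in Nell2-/-, against 4.802, 4.001 and 3.98 FPKM contralaterally and 3.05, 2.37 and 2.87 FPKM in unilateral OD. Its sham and bilateral OD libraries held 5.16, 5.45 and 3.82 FPKM and 10.8, 8.23 and 8.31 FPKM. WT was thus about as high as bilateral OD, and the age and preparation of the WT group cannot be told apart from other differences between it and sham. Sema6d was 0.982 ± 0.165 FPKM in sham and 3.23 ± 0.321 FPKM in bilateral OD, a ratio of 3.29, with ratios of 0.631 in unilateral OD and 0.538 in Nell2-/-.

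Htr5b encodes a serotonin receptor and had the deepest drop of all chosen genes outside the small RNA genes. It stood at 4.19, 3.47 and 3.52 FPKM in sham, 9.44, 6.95 and 6.14 FPKM in bilateral OD and 3.28, 2.38 and 2.58 FPKM on the contralateral side. On the operated side it was 0.0425, 0.0429 and 0 FPKM. WT held 1.66, 2.34 and 2.96 FPKM and Nell2-/- 0.0722, 0.136 and 0.201 FPKM. It was thus at 0.201 FPKM or less in every unilateral OD and Nell2-/- library. In bilateral OD, which lacks luminal input as the operated side of unilateral OD does, it stood at 2.01 times the sham mean. Plxdc2, a transmembrane receptor with a plexin domain, and Dll4, a Notch ligand of endothelium, completed this group with bilateral ratios of 1.71 and 1.76.

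Other secreted and surface proteins formed the next group. Wfdc2 encodes a small secreted protein of the whey acidic protein family, first described in human epididymis as HE4. Sham libraries held 19.4, 22.9 and 18.4 FPKM and bilateral OD 40.4, 41.7 and 41.01 FPKM. Contralateral libraries were uneven at 11.1, 14.96 and 18.4 FPKM, and unilateral OD lay at 3.18, 5.04 and 5.203 FPKM. WT held 24.3, 22.3 and 21.8 FPKM and Nell2-/- 5.397, 6.11 and 4.299 FPKM. Here gain and loss were both large, at ratios of 2.03, 0.302 and 0.231.

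Mme, or neprilysin, is a membrane peptidase that cleaves small peptides outside the cell. It was tight within groups, at 14.5, 15.3 and 13.3 FPKM in sham, 22.4, 24.8 and 24.3 FPKM in bilateral OD, 13.1, 13.4 and 14.2 FPKM contralaterally and 5.02, 5.15 and 5.09 FPKM in unilateral OD, with 13.2, 15.3 and 15.99 FPKM in WT and 6.36, 6.15 and 5.58 FPKM in Nell2-/-. The operated side and Nell2-/- thus reached nearly the same level, and neither overlapped any control. Its second RefSeq window, on the plus strand of GRCm38.p6 (chr3:63295622-63295921), holds the other match to the AP-1 letters, in capitals.
Mme: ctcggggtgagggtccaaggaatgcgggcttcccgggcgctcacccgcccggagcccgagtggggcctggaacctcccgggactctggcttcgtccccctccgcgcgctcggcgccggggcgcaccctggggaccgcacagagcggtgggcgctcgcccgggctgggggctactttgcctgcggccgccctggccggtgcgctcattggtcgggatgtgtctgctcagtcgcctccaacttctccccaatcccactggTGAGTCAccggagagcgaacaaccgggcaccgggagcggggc

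Lypd3, a lipid-anchored member of the Ly6 family, had 3.09, 2.94 and 2.69 FPKM in sham and 13.1, 12.04 and 11.3 FPKM in bilateral OD. It had 2.84, 2.005 and 2.08 FPKM contralaterally and 1.34, 1.03 and 0.969 FPKM in unilateral OD, with 2.21, 1.63 and 2.09 FPKM in WT and 0.456, 0.628 and 0.915 FPKM in Nell2-/-. Its bilateral ratio was above 4 and both other ratios were below 0.5, as for Fxyd4. Tm4sf1, a 4-pass membrane protein, differed less, with ratios of 1.77, 0.727 and 0.593.

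**Figure D3:**
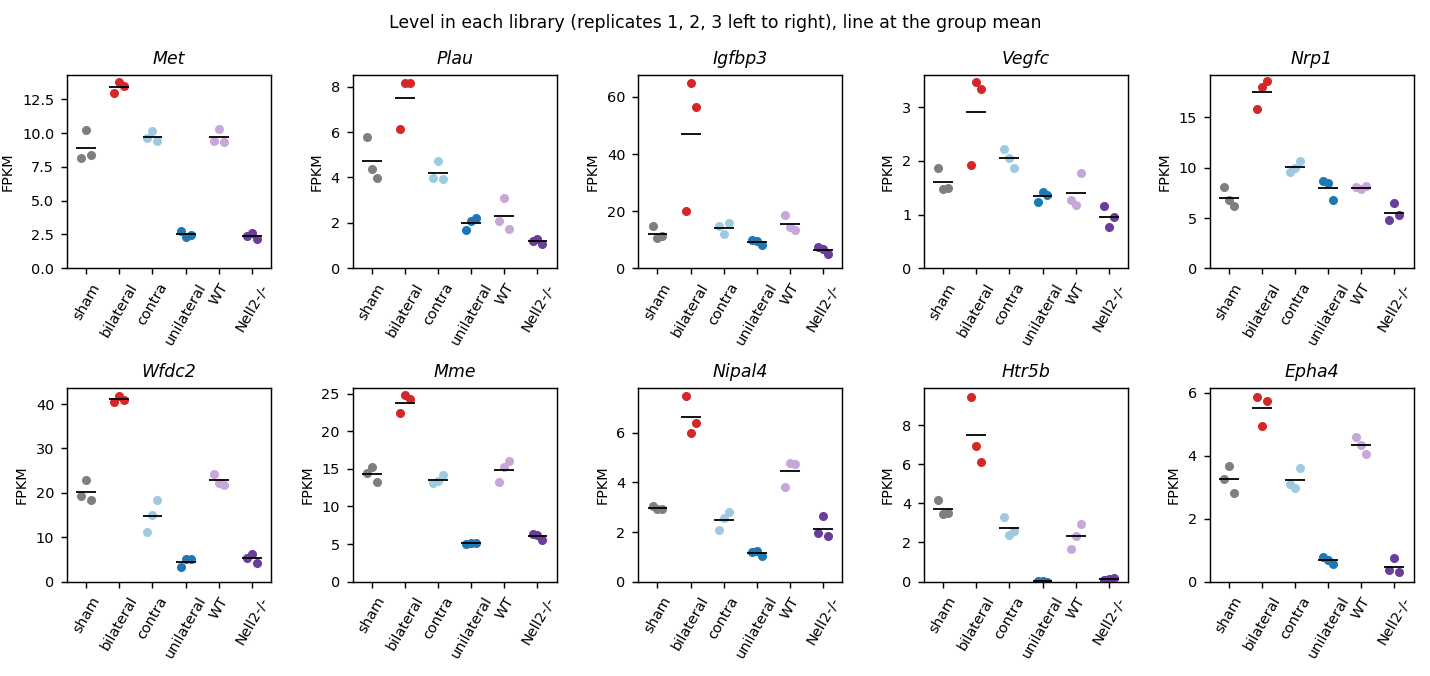
FPKM in each library of 10 chosen genes, 1 panel per gene with its own axis from 0, for sham, bilateral OD, contralateral, unilateral OD, WT and Nell2-/- (3 points each, black line at the mean). Met, Mme, Htr5b and Epha4 lie far below their controls in unilateral OD and Nell2-/-, Wfdc2 and Nrp1 stand out in bilateral OD, and replicate 1 of bilateral OD is low for Igfbp3 and Vegfc.

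Ion transport, lipid and energy metabolism formed a further group. Fxyd4 encodes a small regulator of the sodium pump that is known in kidney and colon as an aldosterone-induced gene. It held 1.805, 0.7302 and 2.67 FPKM in sham and 7.77, 10.2 and 12.4 FPKM in bilateral OD. Its other groups were low, with 1.77, 1.43 and 1.84 FPKM contralaterally, 0.658, 0 and 0.748 FPKM in unilateral OD, 1.09, 1.03 and 2.58 FPKM in WT and 1.11, 0.699 and 0.206 FPKM in Nell2-/-, and WT overlapped Nell2-/-.

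Nipal4, a membrane protein of a magnesium transporter family, held 3.06, 2.91 and 2.94 FPKM in sham, 7.49, 5.99 and 6.41 FPKM in bilateral OD, 2.06, 2.58 and 2.797 FPKM contralaterally and 1.19, 1.22 and 1.02 FPKM in unilateral OD. WT (3.83, 4.78 and 4.74 FPKM) was above sham, and Nell2-/- held 1.96, 2.63 and 1.83 FPKM. Atp6v0d2 encodes a subunit of the proton pump that clear and narrow cells use to acidify the lumen. It was 57.4 ± 1.88 FPKM in sham, 87.7 ± 4.23 FPKM in bilateral OD, 47.6 ± 2.13 FPKM contralaterally, 37.6 ± 3.85 FPKM in unilateral OD, 59.6 ± 2.81 FPKM in WT and 44.6 ± 1.19 FPKM in Nell2-/-. The summed level of 5 clear and narrow cell markers, of which Atp6v0d2 is 1, moved up in all 3 conditions. It lay between 121 and 122 FPKM in sham and 307 and 376 FPKM in bilateral OD, between 108 and 117 FPKM contralaterally and 140 and 165 FPKM in unilateral OD, and between 118 and 123 FPKM in WT and 157 and 169 FPKM in Nell2-/-. Of the 5 markers, Atp6v0d2 was the only one lower in unilateral OD and in Nell2-/-.

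The remaining genes of this group were Esyt3, which tethers the endoplasmic reticulum to the plasma membrane, Kcns3, a modulatory potassium channel subunit, Agmo, an enzyme of ether lipid breakdown, Athl1, a glycosidase, and Cox4i2, a subunit isoform of cytochrome c oxidase. Esyt3 stood at 15.8 ± 1.49 FPKM in sham and 23.97 ± 2.94 FPKM in bilateral OD, and at 15.4 ± 0.147 and 11.5 ± 0.325 FPKM on the contralateral and operated sides. Kcns3 had the largest bilateral ratio of these 5 genes (2.48). Cox4i2 went against the rest in its controls, with 0.686, 0.163 and 0.448 FPKM in sham and 2.67, 1.603 and 2.29 FPKM contralaterally. Its bilateral OD libraries (0.8001, 1.03 and 0.372 FPKM) overlapped sham and lay below all contralateral libraries, so that its bilateral ratio of 1.697 describes levels around 1 FPKM or less.

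Intracellular signalling and scaffold genes made up the largest group, with 17 genes. Lurap1l, an adaptor protein with leucine-rich repeats, held 8.12, 6.41 and 6.54 FPKM in sham, 16.8, 18.04 and 18.8 FPKM in bilateral OD, 7.44, 5.85 and 7.33 FPKM contralaterally and 2.87, 2.68 and 2.51 FPKM in unilateral OD. WT held 5.34, 4.31 and 4.35 FPKM and Nell2-/- 1.22, 1.47 and 1.45 FPKM. It was apart from all 9 control libraries in both directions. Rap1gap, which switches off the small GTPase Rap1, was 1.095, 1.49 and 1.21 FPKM in sham and 3.46, 2.901 and 3.15 FPKM in bilateral OD. It was 1.03, 1.05 and 1.11 FPKM contralaterally, 0.304, 0.4598 and 0.697 FPKM in unilateral OD, 2.95, 2.68 and 2.59 FPKM in WT and 0.452, 1.42 and 0.2397 FPKM in Nell2-/-, with WT above every sham library, as for Sema4g.

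Gngt2, a G protein gamma subunit, overlapped its controls in unilateral OD (3.78, 1.501 and 1.83 FPKM against 4.39, 2.86 and 4.67 FPKM). It lay just below WT in Nell2-/- (3.32, 1.38 and 1.83 FPKM against 3.7, 3.42 and 5.21 FPKM) and at 7.66, 6.85 and 7.31 FPKM in bilateral OD against 3.704, 5.31 and 2.79 FPKM in sham. Anxa11, a calcium-dependent phospholipid-binding protein, was tight and well expressed, at 29.9 ± 2.41 FPKM in sham, 56.7 ± 1.03 FPKM in bilateral OD, 25.03 ± 1.52 FPKM contralaterally, 19.6 ± 1.34 FPKM in unilateral OD, 26.3 ± 0.5797 FPKM in WT and 19.3 ± 1.06 FPKM in Nell2-/-. Ubash3b, a phosphatase that acts on receptor-linked tyrosine kinases, had 0.888, 1.07 and 1.11 FPKM in sham and 5.32, 5.01 and 4.02 FPKM in bilateral OD. Its drops were small, with ratios of 0.715 and 0.604.

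Inpp1, an inositol phosphatase, had ratios of 2.13, 0.546 and 0.645 in bilateral OD, unilateral OD and Nell2-/-. Pdzd4, a PDZ domain protein, had 2.06, 0.716 and 0.503 in the same order. The other 10 genes had bilateral ratios between 1.51 (Ptpn18, a tyrosine phosphatase) and 1.79 (Nuak1, a kinase related to AMPK). They were Rnd3, an atypical small GTPase, Gnb1l, with the repeats of G protein beta subunits, Pde2a, a cyclic nucleotide phosphodiesterase, Cables1, a substrate of cyclin-dependent kinases, Ctnnd2, a catenin of the delta type, Dennd3, an activator of Rab GTPases, Micalcl, Fam129a, Ptpn18 and Nuak1. Fam129a, for example, was apart in all 3 comparisons and held 5.305 ± 0.827, 8.44 ± 1.05, 5.44 ± 0.405, 3.25 ± 0.276, 7.73 ± 0.491 and 3.81 ± 0.376 FPKM in sham, bilateral OD, contralateral, unilateral OD, WT and Nell2-/-.

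Gene regulation and protein turnover took 6 genes. Zfp36l2, which binds AU-rich elements and promotes mRNA decay, held 37.4, 40.02 and 35.8 FPKM in sham, 64.1, 73.7 and 68.4 FPKM in bilateral OD, 31.9, 33.4 and 31.6 FPKM contralaterally and 17.2, 15.9 and 17.8 FPKM in unilateral OD, with 28.1, 29.99 and 25.5 FPKM in WT and 16.5, 19.7 and 22.1 FPKM in Nell2-/-. Nr3c2, the mineralocorticoid receptor, held 2.76, 3.88 and 3.81 FPKM in sham, 5.55, 5.77 and 6.33 FPKM in bilateral OD, 3.79, 4.01 and 4.31 FPKM contralaterally and 2.68, 2.53 and 2.19 FPKM in unilateral OD. Its WT libraries held 4.19, 4.55 and 4.66 FPKM and its Nell2-/- libraries 1.94, 2.096 and 1.72 FPKM. Both genes were apart from all 9 controls in both directions. Per2, a repressor in the circadian clock, stood at 1.39, 1.66 and 1.64 FPKM in sham and 3.66, 5.15 and 5.03 FPKM in bilateral OD, with ratios of 0.599 and 0.683 in the other comparisons. The time of day of tissue collection is not given in the sources used here, and its part in the levels of a clock gene was not tested.

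Trim8 and Trim56 are ubiquitin ligases of the tripartite motif family, and Ier5l is a relative of an immediate early gene. Trim8 was 17.1 ± 0.702 FPKM in sham, 25.9 ± 1.93 FPKM in bilateral OD, 16.6 ± 0.972 FPKM contralaterally and 12.2 ± 1.45 FPKM in unilateral OD, with a Nell2-/- ratio of 0.762. Trim56 was 1.47, 2.05 and 2.19 FPKM in sham and 2.405, 3.95 and 3.56 FPKM in bilateral OD, but its contralateral libraries (3.603, 4.36 and 4.15 FPKM) had a higher mean than bilateral OD. Ier5l had ratios of 1.59, 0.666 and 0.683.

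Spag6, a protein of the central apparatus of motile cilia, Ttc21a, a protein of transport within cilia, 1700026L06Rik, named Spaca9 in RefSeq, and 4833427G06Rik, named Hoatz in RefSeq, are genes of cilia and flagella. In bilateral OD, Spag6 held 2.72, 4.01 and 3.304 FPKM against 1.51, 1.82 and 1.42 FPKM in sham, and 4833427G06Rik held 3.299, 7.35 and 3.86 FPKM against 1.099, 0.897 and 0.547 FPKM. In unilateral OD all 4 genes overlapped the contralateral libraries, for example 1.05, 0.682 and 1.02 FPKM in unilateral OD and 1.79, 1.82 and 1.03 FPKM contralaterally for Spag6. The ratio of 4833427G06Rik there turned to 1.23 without contralateral replicate 1. The summed level of 4 markers of the ciliated cells of the efferent ducts lay between 19.2 and 21 FPKM in sham and between 38.3 and 61.1 FPKM in bilateral OD, with every marker higher in all bilateral OD libraries. The same sum lay between 14.1 and 17.1 FPKM contralaterally, 19.3 and 22.8 FPKM in unilateral OD, 17 and 24.4 FPKM in WT and 18.1 and 33.8 FPKM in Nell2-/-, and the part of these cells in the cilium gene levels was not tested. In bulk tissue, fewer cells of a type and less RNA per cell cannot be told apart.

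Cryba4, a beta crystallin best known from the lens, was the most abundant of the chosen genes. It held 626, 547 and 463 FPKM in sham, 1028, 869 and 889.6 FPKM in bilateral OD, 401, 381 and 389 FPKM contralaterally, 208, 215 and 181 FPKM in unilateral OD, 412, 442 and 493 FPKM in WT and 255, 169 and 165 FPKM in Nell2-/-. No treated library overlapped a control. Myct1, described as a target of Myc, was the lowest at 1.05 ± 0.143 FPKM contralaterally.

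The 3 small RNA genes were at 0 in many libraries, and the contralateral mean of each rests on 1 library. Mir8094 was listed at 0 in all 3 sham libraries and at 15.6, 0 and 14.5 FPKM in bilateral OD, 0, 0 and 17.6 FPKM contralaterally, 0, 0 and 0 FPKM in unilateral OD, 33.9, 0 and 39.9 FPKM in WT and 14.3, 35.9 and 0 FPKM in Nell2-/-. Snord15b was listed at 0 except in 1 library each of bilateral OD (13.4 FPKM), contralateral (16.4 FPKM), WT (9.28 FPKM) and Nell2-/- (6.67 FPKM). Mir8097 held 36.3, 0 and 13.03 FPKM in sham, 11.5, 9.44 and 72.96 FPKM in bilateral OD, 0, 12.4 and 0 FPKM contralaterally, 0, 0 and 3.91 FPKM in unilateral OD, 15.3, 0 and 47.5 FPKM in WT and 0, 0.133 and 0 FPKM in Nell2-/-. These annotated genes are 117, 145 and 119 bp long, short for this method, in libraries made from polyadenylated RNA, and their groups overlapped. Without them, 55 genes met the rule, and 56 without the 2 genes at 0 in all sham libraries.

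Replicate 1 of bilateral OD stood apart from replicates 2 and 3 in markers of several cell types. The sum of 5 fibroblast markers was 215.9 FPKM in it against 832 and 828 FPKM, and lay between 266 and 340 FPKM in sham. That sum does not speak for each marker, since 2 of the 5 had higher means in bilateral OD than in sham and 3 had lower ones. Basal cell markers summed to 79.2 FPKM against 158 and 153 FPKM. All 5 fibroblast, all 5 basal cell and all 8 macrophage markers were lowest in replicate 1 of the 3. Its macrophage sum was 189 FPKM against 213 and 221 FPKM, and 162 to 186 FPKM in sham. Other sums were highest in replicate 1. Among them were adipocyte markers (15.5 FPKM against 2.67 and 5.45 FPKM), mesothelium markers (10.8 against 3.0 and 7.37 FPKM) and clear and narrow cell markers (376 against 307 and 314 FPKM). Among the 56 chosen genes with finite ratios, 10 were below 0.67 of the mean of replicates 2 and 3 in that library, against 5.58% of all genes with a contralateral mean of at least 1 FPKM. They were Igfbp3, Vegfc, Plxdc2, Nuak1, Epha2, Trim56, Ttc21a, 1700026L06Rik, 4833427G06Rik and Mir8097. Plxdc2, for example, held 8.06 FPKM in replicate 1 and 14.5 and 13.8 FPKM in the others, against 7.498, 7.09 and 6.63 FPKM in sham. Replicate 1 alone exceeded 1.5 times the sham mean for 42 of the 56 genes, and the mean of replicates 2 and 3 for 51. The rule used the mean of these same 3 libraries. Nothing is therefore read from these counts, or from the 10 of 56 genes set against 5.58%. Leaving it out gave 59 genes by the rule, 53 of them shared. The part of fibroblasts or basal cells in these levels was not tested.

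**Figure D4:**
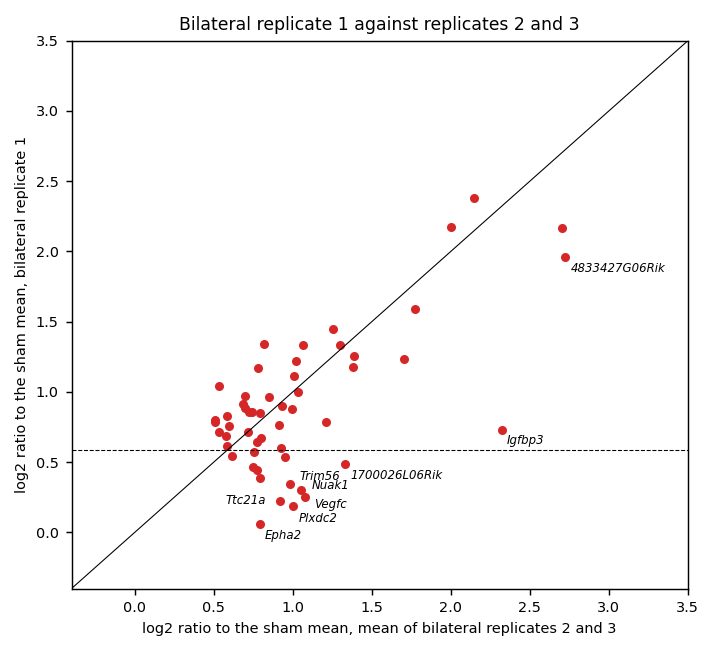
Log2 ratio to the sham mean of bilateral OD replicate 1 (y axis) against the mean of replicates 2 and 3 (x axis) for 53 of the chosen genes, Mir8097 and the 2 genes at 0 in sham not among them. The line marks equal ratios, the dashed line a ratio of 1.5, and the 9 named genes are those below 0.67 of the mean of replicates 2 and 3, with Igfbp3 the farthest below the line.

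Genes known from endothelium were also among the 58, namely Nrp1, Dll4, Pde2a, Tm4sf1 and Myct1, and were grouped after their values were seen. The sum of 5 endothelial markers lay between 21.7 and 30.1 FPKM in sham and between 23.9 and 27.7 FPKM in bilateral OD. It lay between 32.9 and 39.1 FPKM contralaterally and 23.4 and 24.5 FPKM in unilateral OD, and between 31.7 and 32.3 FPKM in WT and 15.3 and 19.8 FPKM in Nell2-/-. All 5 markers had lower means in unilateral OD and in Nell2-/-, none was at 0, and 2 of 5 had higher means in bilateral OD. The endothelial sum thus moved with these genes in the 2 comparisons in which they were low, and its part in their levels was not tested. Other genes known from endothelium were not high in bilateral OD. The VEGF receptor genes Kdr and Flt1 had lower means in all 3 conditions. Kdr was 3.96 ± 0.77 FPKM in sham and 1.90 ± 0.251 FPKM in bilateral OD. Flt1 was 2.30 ± 0.345 FPKM in sham and 0.810 ± 0.278 FPKM in bilateral OD.

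The contralateral side of unilateral OD against sham was the one comparison of the study that the rule did not use as such, though it shares both control groups with it, and the rule favours genes that are low in sham and high contralaterally. With limma on log2(FPKM + 0.1) over all 18 libraries and Benjamini-Hochberg adjustment over 17302 genes, 6 of the 58 chosen genes had an adjusted p under 0.05. Trim56 (log2 1.06 ± 0.18, standard error, adjusted p = 0.0016), Cox4i2 (2.21 ± 0.44, adjusted p = 0.0043) and Nrp1 (0.53 ± 0.12, adjusted p = 0.0086) were higher contralaterally. Atp6v0d2 (log2 −0.27 ± 0.07, adjusted p = 0.014), Anxa11 (−0.25 ± 0.07, adjusted p = 0.020) and Cryba4 (−0.47 ± 0.14, adjusted p = 0.040) were lower. Over all genes tested 6.65% were higher and 5.99% lower, so that the share among the chosen genes is near the background. Their median log2 difference was 0.03 against −0.03 over all genes tested, and 38 of 56 had a contralateral mean within 0.8 to 1.25 of the sham mean.

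The pathways around the receptors were examined with 6 lists of 83 genes for immediate early genes, ERK feedback and ETS genes, and the EGF, HGF, IGF and VEGF systems. Outside the 58 chosen genes 70 were tested. In bilateral OD against sham 29 rose and 26 fell by limma (adjusted p under 0.05), where over all genes 30.4% rose and 31.4% fell. In unilateral OD 14 rose and 29 fell (16% and 18.6% over all genes), and in Nell2-/- 17 rose and 29 fell (17.8% and 18.6%). The median log2 fold change of the 70 genes was 0.17, −0.21 and −0.18 in the 3 comparisons, against 0.02 in each over all genes tested.

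ERK feedback and ETS genes, which ERK signalling switches on, did not share the pattern of the chosen genes. Of 15 such genes 13 fell and 1 rose in bilateral OD, and 14 fell and 1 rose in both unilateral OD and Nell2-/-. Etv5, an ETS factor needed in the initial segment, had log2 fold changes of −5.79 ± 0.09 (adjusted p = 8.4e-19) in bilateral OD, −6.41 ± 0.09 (adjusted p = 1.2e-18) in unilateral OD and −7.07 ± 0.09 (adjusted p = 2.2e-19) in Nell2-/- by limma. Dusp6, a phosphatase that dampens ERK, fell by 3.29, 3.82 and 4.59 on the same scale. Met, Epha4, Htr5b, Mme and Wfdc2 were low with these genes in unilateral OD and in Nell2-/-, but not when both testes were removed. The rule required these directions of every chosen gene, so nothing is read from this contrast. Ros1 was lower in all 3 conditions. It stood between 49.8 and 58.7 FPKM in sham and between 18.2 and 21 FPKM in bilateral OD, between 62.6 and 73.1 FPKM contralaterally and 37.5 and 45.5 FPKM in unilateral OD, and between 62.4 and 68.8 FPKM in WT and 32.4 and 34.4 FPKM in Nell2-/-.

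Around Met, the HGF list counted 6 genes up and 2 down of 10 in bilateral OD, 5 and 2 in unilateral OD and 4 and 2 in Nell2-/-. Over all genes tested, 30.4% rose and 31.4% fell in bilateral OD. The shares were 16% and 18.6% in unilateral OD, and 17.8% and 18.6% in Nell2-/-. The falls of this list in unilateral OD and Nell2-/- are near those shares. The same shares stand beside the counts of the IGF, VEGF, EGF and immediate early lists. Hgfac, the protease that activates hepatocyte growth factor, fell in all 3, by 3.95, 4.55 and 4.71 on the log2 scale by limma. Spint1, an inhibitor of that protease, rose in all 3 (2.07 ± 0.07, 0.30 ± 0.07 and 0.38 ± 0.07), as did the related inhibitor Spint2 (0.39 ± 0.10, 0.39 ± 0.10 and 0.46 ± 0.10). St14, the surface protease matriptase, fell in unilateral OD (−0.54 ± 0.06) and Nell2-/- (−0.60 ± 0.06) and was at −0.01 ± 0.06 in bilateral OD (adjusted p = 0.83).

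Around Igfbp3, 7 of 13 IGF system genes rose and 2 fell in bilateral OD, against 0 and 3 in unilateral OD and 1 and 4 in Nell2-/-. Igf1r, the receptor, fell in all 3 (−1.36 ± 0.07, −1.84 ± 0.07 and −2.38 ± 0.07). Igfbp7 rose in bilateral OD (0.58 ± 0.09), fell in unilateral OD (−0.29 ± 0.09) and was at −0.14 ± 0.09 in Nell2-/- (adjusted p = 0.24). Around Vegfc and Nrp1, 1 of 7 VEGF family genes rose and 4 fell in bilateral OD, with 1 and 3 in unilateral OD and 1 and 2 in Nell2-/-, and Vegfa, the main vascular ligand, fell in bilateral OD (−3.80 ± 0.15) and unilateral OD (−1.42 ± 0.15). Of 11 EGF family genes 7 rose and 2 fell in bilateral OD, and 5 rose and 2 fell in each of the others. The EGF family falls in unilateral OD and Nell2-/- are near the 18.6% over all genes. Tgfa, a ligand, rose in all 3 (2.34 ± 0.13, 0.89 ± 0.13 and 1.16 ± 0.13).

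Over the 6 lists 23 genes fell in all 3 comparisons and 9 rose in all 3. Most of the 23 were ERK feedback and ETS genes. The 14 immediate early genes were mixed, with 7 up and 3 down in bilateral OD, 2 and 5 in unilateral OD and 5 and 5 in Nell2-/-. Klf6, an immediate early transcription factor, was named after its values were seen. Of the 70 genes only Klf6 rose in bilateral OD (0.88 ± 0.09) and fell in unilateral OD (−0.31 ± 0.09) and Nell2-/- (−0.25 ± 0.09). This is the pattern of the chosen genes, at ratios that did not meet the rule. The 70 genes do not include the 5 list genes that met the rule, which have this pattern by selection. The shares of all genes tested with these patterns over the 3 comparisons were not computed. Nothing is therefore read from the counts of 23 and 9, or from Klf6 standing alone.

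**Figure D5:**
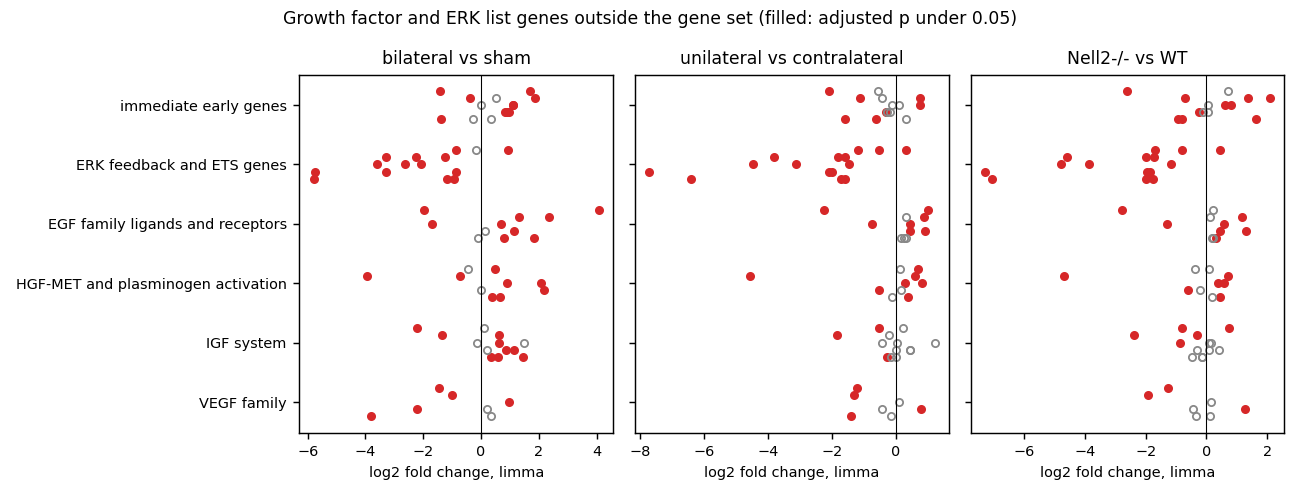
Limma log2 fold change (x axis, each panel with its own range) of the 70 tested list genes outside the 58 chosen genes, by list, in bilateral OD against sham, unilateral OD against contralateral and Nell2-/- against WT. Filled points have an adjusted p under 0.05 and open points do not; 13 of 15 ERK feedback and ETS genes fell in bilateral OD and 14 in each of the other comparisons.

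Androgen-induced genes moved in more than one way. Of 9 such genes, none of them chosen by the rule, 7 fell and 2 rose in bilateral OD, while 2 fell and 2 rose in both unilateral OD and Nell2-/-. Over all genes tested, 30.4% rose and 31.4% fell in bilateral OD. The shares were 16% and 18.6% in unilateral OD, and 17.8% and 18.6% in Nell2-/-. The counts of this list in unilateral OD and Nell2-/- are near those shares, which also stand beside the 2 lists below. Fkbp5, a classical androgen-induced gene, fell in bilateral OD (−2.70 ± 0.05, adjusted p = 2.7e-17 by limma) and was at −0.11 ± 0.05 in unilateral OD and 0.03 ± 0.05 in Nell2-/- (adjusted p = 0.12 and 0.76). Acsl3, a fatty acid activating enzyme, fell in all 3 (−0.34 ± 0.06, −0.48 ± 0.06 and −0.62 ± 0.06). Tmprss2, a membrane serine protease named after its values were seen, rose in all 3 (2.68 ± 0.17, 0.58 ± 0.17 and 0.55 ± 0.17), and whether the conditions differed over this list was not tested. Of 6 tested genes known to rise in prostate after castration, a list that also holds 1 chosen gene, 4 rose and 1 fell in bilateral OD, 2 and 2 in unilateral OD, and 3 and 2 in Nell2-/-. Clu, a secreted chaperone, rose in all 3 (1.58 ± 0.17, 1.14 ± 0.17 and 1.51 ± 0.17). Of 15 epithelial surface and junction genes, a list that also holds 2 chosen genes, 6 rose and 5 fell in bilateral OD, 4 and 3 in unilateral OD and 4 and 5 in Nell2-/-. Epcam, an epithelial adhesion protein, rose by limma in bilateral OD (0.32 ± 0.05) and was at −0.07 ± 0.05 and −0.10 ± 0.05 in the others (adjusted p = 0.36 and 0.16).

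The chosen genes were spread over the genome, and the closest neighbours, Sema4g and Trim8 on chromosome 19, were 1498251 bp apart. RefSeq start windows of 300 bases were held for 41 of the 58 genes. On either strand, the ETS core GGAAGT was found for 11 of the 41 genes (26.8%) and for 26.5% of all 27025 genes with windows. The AP-1 letters TGANTCA were found for 2 (4.9%, all genes 9.0%), the androgen receptor hexamer AGAACA for 7 (17.1%, all genes 21.3%), CACGTG for 4 (9.8%, all genes 8.1%) and TGACGTCA for 1 (2.4%, all genes 2.0%). The full androgen receptor element, the hexamer and its reverse complement 3 bases apart, which overlaps the hexamer count, was found in none. Windows of the chosen genes had a median GC content of 63.3%, against 60.7% for genes with a contralateral mean of at least 1 FPKM and 52.7% for all windows. These are matches of letters and not sites shown to be bound.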

How the data were processed

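Poly(A)+ RNA of IS-caput epididymis was sequenced by the study from 18 libraries in 6 groups of 3. Per the file headers and the study's methods, the authors deposited normalized FPKM per gene for 24346 genes. Reads were single ends from TruSeq stranded libraries, mapped to mm10 by TopHat2 (2.1.1), and Cufflinks (2.2.1) gave the levels. What the further normalization was is not given in the sources used here. Library labels and the study's methods name different makers of the RNA kit. FPKM hide read depth. The commonest ratio of values under 0.1 FPKM to the same gene in sham replicate 1 put the worth of 1 read between 0.6 and 1.01. Bilateral OD libraries lay between 0.6 and 0.778, a range that also held unilateral OD replicate 3 (0.732) and Nell2-/- replicate 1 (0.723). Depth would thus differ by less than 2-fold, provided that the further normalization left these ratios unchanged.

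The rule was applied to group means of the FPKM as deposited. The genes and lists were chosen with earlier results of these data known. Log2(FPKM + 0.1) was fitted on 6 group means over all 18 libraries with limma 3.58.1 in R 4.3.3 (eBayes with trend and robust, 12 residual degrees of freedom). P-values were adjusted by Benjamini-Hochberg over 17302 genes reaching 0.1 FPKM in at least 3 libraries, leaving out 7044, and a gene was called at an adjusted p under 0.05. Fold changes on this scale understate those of low genes.

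Genes named are those chosen with a contralateral mean of at least 10 FPKM, those on a pathway, epithelial or androgen list, the 10 with the largest smallest absolute log2 ratio of the 3 among those of at least 2 FPKM, the 2 nearest each threshold on either side, and up to 4 other genes per list by mean level. Further genes, roles and the groups by role were chosen after values were seen. Of the chosen genes, 2 are counted but not reported here. Marker sums cover 16 cell type lists, of which only some are printed, picked after their values were seen. The printed sums did not all move with the chosen genes. The clear and narrow cell sum, for example, was higher in unilateral OD and Nell2-/-. Sums of principal cell secretory genes lay between 70100 and 72800 FPKM in sham and between 866 and 1160 FPKM in bilateral OD. Sums of sperm and late germ cell genes lay between 75.2 and 89.4 FPKM in sham and between 0 and 0.419 FPKM in bilateral OD. The latter sum was 62.0 to 88.2 FPKM contralaterally and 2.32 to 5.18 FPKM in unilateral OD. In Nell2-/- it was not low, at 231 to 263 FPKM against 158 to 251 FPKM in WT. Alternatives were group medians, median-ratio scaling, other minimums and thresholds, pseudocounts of 1 and 0.01 FPKM, no filter or one of 1 FPKM, only the libraries compared, the replicate number as a block, and each library left out in turn. Leaving out genes at 0 in sham or the small RNA genes was added after seeing the data. Positions and promoter windows are from RefSeq on GRCm38.p6, matched by gene identifier.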

Additional observations from a re-analysis of the deposited data

How the results depend on the processing

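The rule gave 58 genes. It gave 67 with group medians (46 shared), 59 after median-ratio scaling (55 shared), 81 with a contralateral minimum of 0.5 FPKM, 20 with a minimum of 5 FPKM and 13 with thresholds of 2 and 0.67. With each library left out in turn it gave 51 to 64. Over the 58 genes, leaving out 1 library turned the direction of a ratio for 4 of them, 4833427G06Rik and the 3 small RNA genes. 4833427G06Rik went to 1.23 in unilateral OD (without contralateral replicate 1). In Nell2-/-, Mir8094 went to 1.02 (without Nell2-/- replicate 3) and Snord15b to 1.08 (without Nell2-/- replicate 2 or 3). Mir8097 in bilateral OD ranged from log2 −0.65 (without bilateral OD replicate 3) to 2.27 (without sham replicate 1) with each library left out, and it had no contralateral level to form a ratio without contralateral replicate 2. Mir8094 and Snord15b were likewise at 0 in some control groups left with 2 libraries.

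In the comparison of contralateral with sham, 6 chosen genes were called. The count was 4 to 6 with each library left out in turn, 5 with only the libraries compared, and 3 with the replicate number as a block (2 higher and 1 lower). The numbers are not shown to pair libraries, since same-numbered deviations of contralateral and unilateral OD correlated at 0.063, 0.076 and −0.033. Among the 70 list genes outside the rule, 55, 43 and 46 were called in bilateral OD, unilateral OD and Nell2-/-. With the block the counts were 55, 43 and 47, and with each library left out they were 53 to 58, 40 to 43 and 41 to 44. FPKM give no counts, so differences among genes near 1 FPKM are the least certain.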
